A study of Mus musculus with 8 samples.

Results

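The genes described here build heme, the iron-holding ring of haemoglobin, cytochromes and other heme proteins, and carry iron into the mitochondrion for its last step. They were chosen as a pathway, by a rule that uses no measured value but was written with earlier results of these data known: 8 enzymes of heme synthesis (Alas1, Alas2, Alad, Uros, Urod, Cpox, Ppox and Fech) and Slc25a37, mitoferrin 1, which makes 9 genes. Of these, 8 have a probe set that the array annotation assigns to 1 gene alone, and all 8 passed the filter on low values. Alas2, the red cell form of the first enzyme, lies only on a probe set annotated to 2 genes, and no value is given for it. The 8 measured genes stand among 22180 genes with such a probe set and 15526 that were tested.

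Heme synthesis starts in the mitochondrion, where ALA synthase joins glycine and succinyl-CoA, runs through the cytosol and returns to the mitochondrion, where ferrochelatase inserts iron. Every cell that respires needs some heme, supplied through Alas1, but red cell precursors in the marrow make by far the most, through Alas2, and mitoferrin 1 is the mitochondrial iron importer of those precursors. The annulus fibrosus, which rings each intervertebral disc with layers of fibrocartilage, is known as a tissue with few blood vessels, set against vertebral bone that holds marrow.

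RNA of thoracic annulus fibrosus from Black 6 mice was measured on 8 Affymetrix arrays in 4 groups of 2 arrays: wild-type (WT) and ENT1-null mice, each at an age of 2 months and of 6 months. ENT1-null mice lack exons 2 to 4 of Slc29a1, whose product is equilibrative nucleoside transporter 1 (ENT1), a carrier of adenosine and other nucleosides. The labels name no promoter, Cre or cell type for the deletion, and no other allele or agent. Each array held a pool of 5 to 6 annulus tissues, and the labels do not say whether a group's pools were of separate mice, so that p-values measure the spread between pools, which may be technical. Values are log2 RMA values, on which 1 unit is a doubling. With 2 arrays in a group, their number limits the precision.

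Array medians lay between 6.77 and 6.82, and Pearson r across the tested genes was 0.983 to 0.984 within groups and at least 0.835 between any arrays (genes are not independent replicates). Slc29a1, the targeted gene, read 10.71 and 10.69 (WT) against 9.21 and 9.36 (ENT1-null) at 2 months, and 10.34 and 10.43 (WT) against 8.90 and 8.80 (ENT1-null) at 6 months. Its groups did not overlap by genotype, and it was lower in ENT1-null, with −1.41 ± 0.09 at 2 months (adjusted p = 0.00724, limma) and −1.53 ± 0.09 at 6 months (0.000354). Which exons its probe set reads was not examined. Markers of annulus and cartilage had mean levels between 10.34 and 11.30 over 13 genes on every array. This list does not tell annulus from other cartilage. Markers of other cells were there too: the means of 11 neutrophil markers ran from 8.50 to 11.77, of 8 macrophage markers from 7.44 to 9.29 and of 8 skeletal muscle markers from 7.23 to 10.38.

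All 8 measured heme genes were highest in the 6 month ENT1-null annulus, next in the 2 month ENT1-null annulus and lowest in the WT arrays of both ages. In each of them both 6 month ENT1-null arrays lay above both 2 month ENT1-null arrays, and those above all 4 WT arrays, an order found in 11.3% of the 15526 genes tested. The WT groups of the 2 ages overlapped in every one. In pooled tissue, a different number of cells of a type and a different amount of RNA per cell cannot be told apart.

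**Figure D1:**
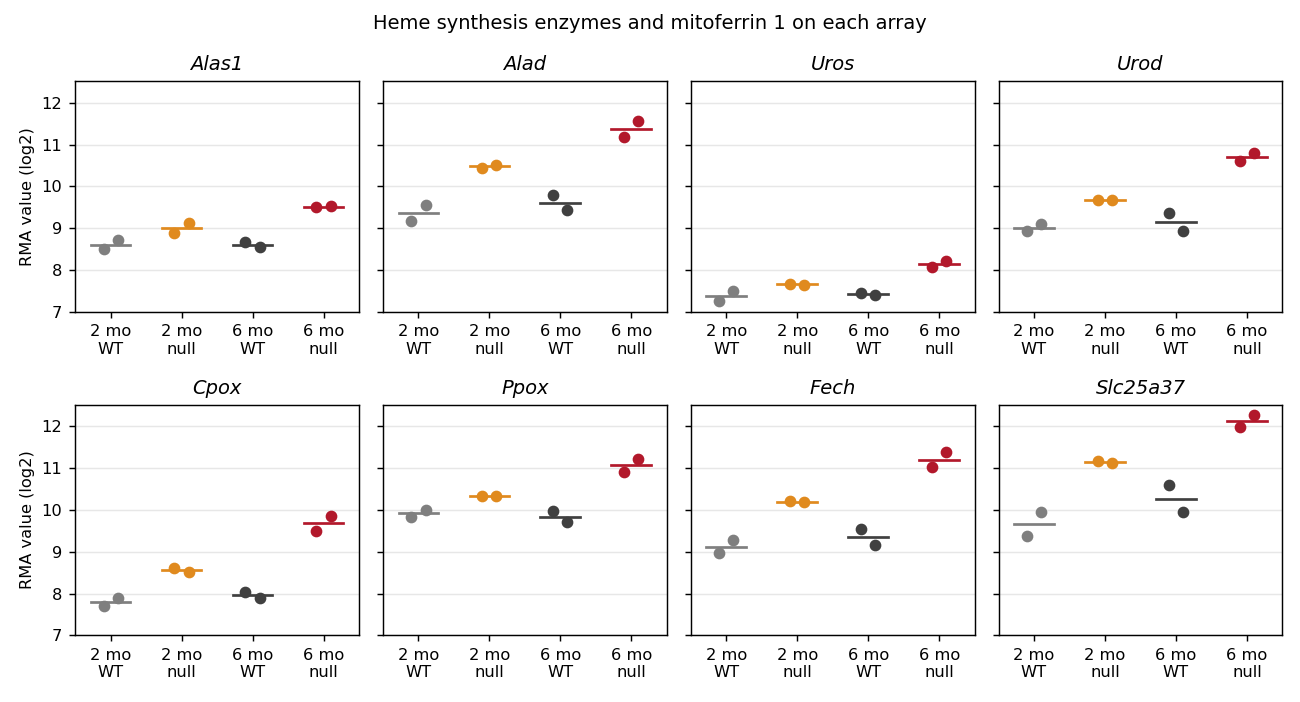
RMA values (log2, vertical axis) of the 8 measured genes on each array, with points for the 2 arrays of a group and a line at their mean; null stands for ENT1-null. In every panel the 6 month ENT1-null points are the highest and the WT points of the 2 ages overlap.

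Alas1, the ALA synthase of all tissues and the gate of the pathway outside the red cell line, read 8.49 and 8.70 (WT) against 8.88 and 9.13 (ENT1-null) at 2 months, and 8.66 and 8.54 (WT) against 9.49 and 9.54 (ENT1-null) at 6 months. The WT arrays of the 2 ages were interleaved, and the 6 month ENT1-null arrays lay close together above all others. Of the 8 genes only Uros had a smaller difference between the genotypes at 6 months.

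The enzymes of the cytosol follow. Alad joins 2 ALA molecules into the ring precursor porphobilinogen. It read 9.17 and 9.54 (WT) against 10.44 and 10.52 (ENT1-null) at 2 months, and 9.79 and 9.43 (WT) against 11.19 and 11.57 (ENT1-null) at 6 months. Uros, which closes the ring, read 7.25 and 7.50 (WT) against 7.66 and 7.64 (ENT1-null) at 2 months, and 7.46 and 7.40 (WT) against 8.06 and 8.22 (ENT1-null) at 6 months. The gap between the genotypes at 2 months was narrow in Uros, with 7.50 in the higher WT array against 7.64 in the lower ENT1-null array. Urod, which trims the side chains of the ring, read 8.93 and 9.09 (WT) against 9.67 and 9.68 (ENT1-null) at 2 months, and 9.36 and 8.92 (WT) against 10.60 and 10.79 (ENT1-null) at 6 months. The 2 month ENT1-null arrays of Urod were nearly equal, and its higher 6 month WT array lay between them and the other WT arrays.

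The last enzymes work in the mitochondrion. Cpox, the oxidase of the intermembrane space, read 7.69 and 7.90 (WT) against 8.61 and 8.52 (ENT1-null) at 2 months, and 8.05 and 7.90 (WT) against 9.50 and 9.86 (ENT1-null) at 6 months. Ppox, which oxidises the ring to protoporphyrin, read 9.83 and 10.005 (WT) against 10.32 and 10.33 (ENT1-null) at 2 months, and 9.97 and 9.71 (WT) against 10.91 and 11.22 (ENT1-null) at 6 months. Fech, the ferrochelatase that inserts iron, read 8.97 and 9.28 (WT) against 10.21 and 10.19 (ENT1-null) at 2 months, and 9.55 and 9.16 (WT) against 11.04 and 11.38 (ENT1-null) at 6 months. Fech and Cpox thus had close 2 month ENT1-null arrays and 6 month ENT1-null arrays well above them. Slc25a37, the iron importer, read 9.38 and 9.96 (WT) against 11.17 and 11.13 (ENT1-null) at 2 months, and 10.59 and 9.95 (WT) against 11.99 and 12.27 (ENT1-null) at 6 months. It had the widest spread among the WT arrays of all 8 genes.

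Promoter windows of the genes, the 250 bases before a RefSeq start in build GRCm38.p6, were searched for AGATAA and TGATAA on both strands, letters that GATA factors, the regulators of red cell precursors, are known to bind. Windows were found for 6 of the 8 measured genes, 9 windows in all because Alas1, Alad and Uros have 2 starts each (those of Alas1 and of Alad overlap). TGATAA lay in 2 of the 9 (22.2%), 1 of Cpox and the downstream start of Uros, and AGATAA in none; the window of Alas2, which has no array value, held AGATAA 86 bases before its start. Of 32851 windows of the same length 16.6% held either motif, 7.94% TGATAA and 9.99% AGATAA. With only 9 windows, some of them overlapping, the shares cannot be read as like or unlike this background. The windows of measured genes that hold a match are shown with that of the upstream Alas1 start, which holds none. Capitals mark the match, here on the strand opposite to the gene.
Cpox, chr16:58669958-58670207, plus strand: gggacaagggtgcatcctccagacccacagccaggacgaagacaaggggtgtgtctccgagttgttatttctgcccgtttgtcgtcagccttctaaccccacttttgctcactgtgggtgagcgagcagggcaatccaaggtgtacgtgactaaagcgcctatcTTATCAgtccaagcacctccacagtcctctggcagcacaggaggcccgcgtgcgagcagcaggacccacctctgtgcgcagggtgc
Uros, chr7:133702501-133702750, minus strand: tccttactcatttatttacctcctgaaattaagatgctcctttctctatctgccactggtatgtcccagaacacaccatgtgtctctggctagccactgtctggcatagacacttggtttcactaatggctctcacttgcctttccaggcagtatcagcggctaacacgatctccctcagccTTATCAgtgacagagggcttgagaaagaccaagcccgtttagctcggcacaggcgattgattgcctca
Alas1, chr9:106247955-106248204, minus strand: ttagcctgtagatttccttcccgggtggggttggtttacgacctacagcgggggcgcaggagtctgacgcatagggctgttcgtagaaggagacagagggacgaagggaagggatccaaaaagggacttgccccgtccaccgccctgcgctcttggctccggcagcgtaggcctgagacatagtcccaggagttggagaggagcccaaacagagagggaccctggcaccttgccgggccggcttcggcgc
The match starts 86 bases before the start of Cpox and 68 bases before the downstream start of Uros. A match is a description of the letters and not a site. At 6 months Cpox rose with genotype by 1.71, less than Slc25a37, Fech and Alad, and Uros rose least of the 8, by 0.71. The array values do not tell which start of Uros was used.

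At 6 months the comparison of ENT1-null with WT asks what loss of ENT1 changes in the older animals. All 8 genes rose in the ENT1-null annulus, by 0.71 to 1.86 on the log2 scale (1.63-fold to 3.63-fold). Slc25a37 and Fech rose most, by 1.86 ± 0.24 and 1.85 ± 0.17 (SE, n = 2 and 2 arrays), then Alad by 1.77 ± 0.18, Cpox by 1.71 ± 0.14 and Urod by 1.56 ± 0.15. Ppox rose by 1.23 ± 0.14, Alas1 by 0.92 ± 0.12 and Uros by 0.71 ± 0.11. Adjusted p lay between 0.000383 (Cpox) and 0.00196 (Uros) in limma, with the Benjamini-Hochberg adjustment over all 15526 genes.

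This count of 8 of 8 stands against a background of 21.2% of all tested genes called higher at 6 months (38.8% in either direction, and 48.4% at an unadjusted p under 0.05, where the 8 also passed). The median difference of the 8 genes was 1.63, against −0.03 over all genes tested. Their differences lay between the 90.0th (Uros) and the 98.0th (Slc25a37) percentile of all tested genes. In each of the 8 both ENT1-null arrays lay above both WT arrays, as in 35.6% of all genes. The 8 calls held without each of the 8 arrays in turn and under the other 9 settings tried, with Slc25a37 between 1.54 without 6 month WT replicate 2 and 2.18 without 6 month WT replicate 1.

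In the 2 month mice the same comparison asks which genes change with ENT1 loss early. Fech and Alad rose, by 1.08 ± 0.17 (adjusted p = 0.0493, limma) and 1.13 ± 0.18 (adjusted p = 0.0494). The other 6 did not pass, and all 6 were above 0: Slc25a37 gave 1.48 ± 0.24 (adjusted p = 0.0527, limma), Cpox 0.77 ± 0.14 (0.0544) and Urod 0.67 ± 0.15 (0.0763). Ppox gave 0.41 ± 0.14 (adjusted p = 0.162, limma), Alas1 0.41 ± 0.12 (0.122) and Uros 0.28 ± 0.11 (0.224). Slc25a37 had the largest difference of the 8 and a larger SE than Fech or Alad. Called genes were rare at this age, with 0.296% of all tested genes higher and 0.683% in either direction; at an unadjusted p under 0.05 all 8 passed, against 19.4%. The median of the 8 genes was 0.72, against −0.04 over all genes, and the arrays did not overlap in any of the 8, as in 19% of all genes with ENT1-null higher.

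Both calls at 2 months rested on narrow margins. They ended without 2 month WT replicate 1 (Fech 0.92, Alad 0.94), without 2 month ENT1-null replicate 1 (1.07 and 1.17) or 2 (1.09 for both), and, at unchanged values, without either 6 month ENT1-null array, which enter only the shared spread. They also ended, at the same differences, with no filter, with only the groups compared, with all probe sets and with a block for replicate number, and with quantile normalization applied again (Fech 1.06, Alad 1.11). Without either 6 month WT array 4 genes passed (Alad, Urod, Fech and Slc25a37), and without 2 month WT replicate 2 the 3 genes Alad, Fech and Slc25a37.

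**Figure D2:**
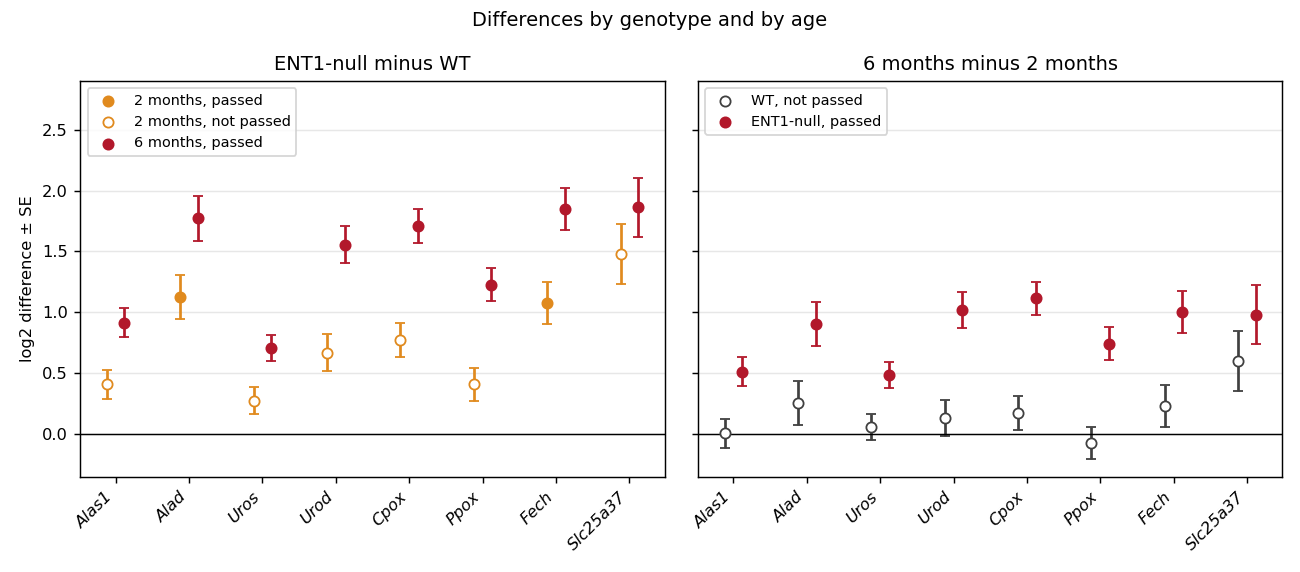
Log2 differences with SE from limma (vertical axis) for the 8 genes in pathway order, by genotype at each age (left) and by age in each genotype (right); filled points passed at adjusted p under 0.05 and open points did not. All 8 genes are filled at 6 months and by age in ENT1-null, 2 at 2 months, and none by age in WT.

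Whether the effect of genotype differed between the ages was tested as an interaction. The difference was above 0 in all 8 genes, with a median of 0.71 against 0.05 over all genes tested, and passed in 1: Cpox, at 0.94 ± 0.20 (adjusted p = 0.046, limma; 2.56% of all genes were called higher and 4.45% in either direction). At an unadjusted p under 0.05 there were 7, against 27% of all genes. Urod at 0.89 ± 0.21 (adjusted p = 0.0547, limma) and Ppox at 0.82 ± 0.19 (0.0538) came next and did not pass. Slc25a37 had the smallest difference, 0.38 ± 0.35 (adjusted p = 0.527, limma). The Cpox call ended without each of the 8 arrays in turn, at 0.76 to 1.12.

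Age was then compared within each genotype. In ENT1-null all 8 genes rose from 2 to 6 months, Cpox most (1.11 ± 0.14), then Urod (1.02 ± 0.15), Fech (1.01 ± 0.17) and Slc25a37 (0.98 ± 0.24). Alad rose by 0.90 ± 0.18, Ppox by 0.74 ± 0.14, Alas1 by 0.51 ± 0.12 and Uros by 0.49 ± 0.11, and adjusted p of the 8 lay between 0.0032 and 0.0265 (limma). Of all genes tested 11.9% were called higher and 22.2% in either direction (35.1% at an unadjusted p under 0.05, where the 8 also passed), and the arrays of the 8 genes did not overlap, as in 30% of all genes. These counts share the 6 month ENT1-null arrays with the comparison of genotypes at 6 months, and the 2 month ENT1-null arrays with that at 2 months. They rested in part on single arrays: Urod and Cpox alone passed without 6 month ENT1-null replicate 2, Urod, Cpox and Fech without 2 month ENT1-null replicate 1, and 6 genes without the other array of either group (Alas1 and Slc25a37 lost without 6 month ENT1-null replicate 1, Uros and Slc25a37 without 2 month ENT1-null replicate 2).

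In WT none of the 8 genes passed between 2 and 6 months (limma), nor did any gene tested (0%). At an unadjusted p under 0.05 Slc25a37 alone was counted, with 0.60 ± 0.24 (adjusted p = 0.358), against 13.3% of all genes. Fech gave 0.23 ± 0.17 and Alas1 0.01 ± 0.12. The median of the 8 was 0.15, against −0.06 over all genes; leaving out 1 WT array moved it to between 0.03 (6 month WT replicate 1) and 0.30 (6 month WT replicate 2). A p above the threshold does not show that the genes stayed level.

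The 8 genes also varied together between the 2 arrays of a group, except in the 2 month ENT1-null group. In the 2 month WT group all 8 were higher in replicate 2 (median of replicate 2 minus replicate 1, 0.24). In the 6 month WT group all 8 were higher in replicate 1 (median −0.31), and in the 6 month ENT1-null group all 8 were higher in replicate 2 (median 0.29). Of all 15526 genes tested, 9078, 7473 and 7554 went the same way in these groups, in that order. In the 2 month ENT1-null group 4 were higher in either array. Over the 8 arrays Pearson r between pairs of the genes ran from 0.942 (Ppox with Slc25a37) to 0.998 (Alad with Fech), with a median of 0.978 over 28 pairs; these values are a description, since the arrays share their groups. Genes whose pattern over the 8 arrays was most like that of Alas1 were Cdt1, a licensing factor of DNA replication (r = 0.999), Serpinb1a, an inhibitor of neutrophil proteases (r = 0.998), and Bub3, of the spindle checkpoint (r = 0.997).

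Markers of red cell precursors moved with the heme genes. Of 16 listed markers that are not among the 8 genes, 11 were measured, and all 11 rose at 6 months (median 2.24; 21.2% of all genes higher). At 2 months 1 of the 11, the erythroid transcription factor Klf1 (1.32 ± 0.20, adjusted p = 0.0443, limma), passed, and all 11 were above 0 (median 1.32). Of all genes tested 0.296% were called higher at that age. The mean of the 11 markers read 7.16 and 7.63 (WT) against 8.78 and 8.65 (ENT1-null) at 2 months, and 8.23 and 7.48 (WT) against 9.73 and 10.05 (ENT1-null) at 6 months. In the same order of arrays the mean of the 8 heme genes was 8.71 and 8.998, 9.62 and 9.64, 9.18 and 8.88, and 10.35 and 10.61. The markers repeated the order of the groups and, in both WT groups and the 6 month ENT1-null group, which replicate was the higher. Pearson r with the marker mean over the 8 arrays was 0.995 for Slc25a37, 0.994 for Fech, 0.992 for Alad, 0.986 for Urod, 0.979 for Cpox, 0.968 for Uros, 0.965 for Ppox and 0.958 for Alas1, as a description of arrays that share their groups. The span from the lowest to the highest array was wider for the markers than for the heme genes. The heme mean minus the marker mean came to 1.55 and 1.37 (WT) against 0.84 and 1.00 (ENT1-null) in younger mice. In older mice it came to 0.95 and 1.39 (WT) against 0.61 and 0.56 (ENT1-null), the last pair being the lowest of the 8 arrays. These markers were read in WT too, with means given above and beside a filter level of 6.21. Slc4a1, the anion exchanger of the red cell membrane, lay above the marker mean (chosen after its values were seen). It read 8.92 and 9.65 in 2 month WT and 12.01 and 12.33 in 6 month ENT1-null, groups that differ in both age and genotype. The 11 neutrophil markers also rose at 6 months (median 2.59), as did 7 of 8 macrophage markers (median 1.32 over the 8). Of 8 skeletal muscle markers 7 fell (median −2.41), and of 13 annulus and cartilage markers 9 fell and 2 rose (median −0.62). Over all 15526 genes tested 2727 were called lower at 6 months, and 38.8% in either direction. At 2 months the 8 muscle markers were all above 0 and none passed (median 1.06, limma). Muscle means varied widely within groups: 7.86 and 9.23 (WT) against 8.80 and 10.37 (ENT1-null) at 2 months. At 6 months they were 10.38 and 10.22 (WT) against 7.23 and 8.44 (ENT1-null). The order of the groups was not particular to the erythroid markers. In the array order above, macrophage means repeated it: 7.44 and 8.04, 8.40 and 8.46, 7.93 and 7.91, and 8.97 and 9.29. They repeated the higher replicates of 2 month WT and 6 month ENT1-null. In 6 month WT the macrophage replicates were nearly equal, with 5 of 8 genes higher in replicate 1 and 3 in replicate 2. Neutrophil means repeated it and the higher WT replicates: 8.68 and 9.96, 10.74 and 11.07, 10.08 and 8.50, and 11.77 and 11.73. The part of red cell precursors in the rise of the heme genes was not tested.

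**Figure D3:**
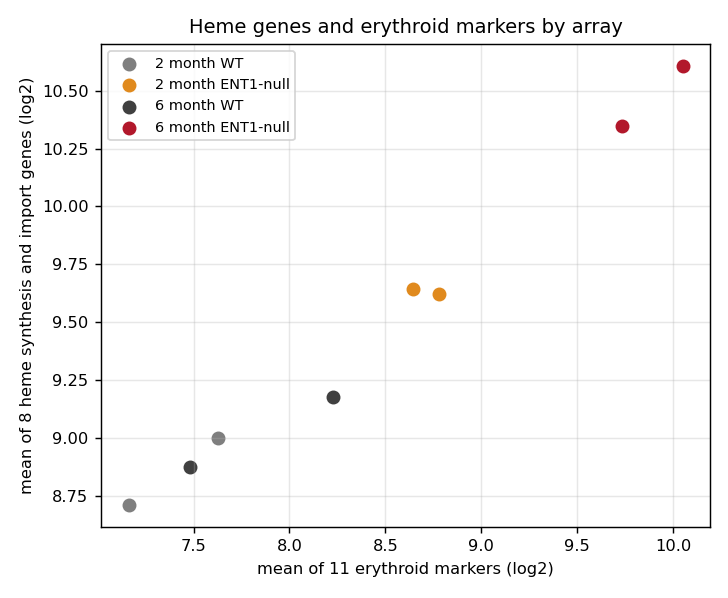
Mean log2 value of the 8 heme genes (vertical axis) against the mean of 11 erythroid markers (horizontal axis), 1 point for each of the 8 arrays. The 6 month ENT1-null arrays stand at the top right, at 10.35 and 10.61 against 9.73 and 10.05, and 2 month WT replicate 1 at the bottom left, at 8.71 against 7.16.

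Carriers and partners of heme synthesis in the mitochondrion rose less evenly. Of 14 listed genes 13 were tested, of which 9 rose, 1 fell and 3 did not pass at 6 months (median 0.76), against 21.2% of all tested genes higher and 38.8% in either direction. Abcb10, an inner membrane transporter of red cell precursors that binds mitoferrin 1, rose by 1.53 ± 0.15 (from 8.41 and 8.12 to 9.67 and 9.92), Tmem14c, which helps porphyrin cross the inner membrane, by 1.08 ± 0.13, and Slc25a38, the mitochondrial glycine carrier, by 0.92 ± 0.10. Adjusted p of these 3 lay between 0.000502 and 0.000852 (limma). Mitoferrin 2, Slc25a28, the importer of other tissues, rose by 0.40 ± 0.13 (adjusted p = 0.0443, limma), against 1.86 for mitoferrin 1. Clpx, the unfoldase that acts on ALA synthase, gave −0.41 ± 0.15 (adjusted p = 0.0588, limma), and Pgrmc1, a heme-binding partner of ferrochelatase, fell by 0.40 ± 0.08 (0.00716); Slc25a28, Clpx and Pgrmc1 were chosen after their values were seen. At 2 months none of the 13 passed (limma), and 3 had an unadjusted p under 0.05, against 19.4% of all genes.

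Iron-sulfur cluster assembly, which ferrochelatase and the iron sensor Aco1 depend on, had 11 tested genes of 16 listed. At 6 months 6 rose, 1 fell (Lyrm4, a partner of the sulfur donor, by 0.31 ± 0.10) and 4 did not pass (median 0.34), beside 21.2% of all genes called higher and 38.8% either way. Glrx5, the glutaredoxin that hands clusters on and is known for sideroblastic anaemia when lost, rose by 1.71 ± 0.20, from 8.84 and 8.40 to 10.11 and 10.55. Isca1 and Isca2, the late carriers of the path, rose by 0.90 ± 0.13 and 0.86 ± 0.09 (adjusted p between 0.000616 and 0.00176 for the 3, limma). At 2 months none of the 11 passed (limma), 3 had an unadjusted p under 0.05, near the 19.4% of all genes, and Glrx5 gave 1.11 ± 0.20 (adjusted p = 0.0544).

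Iron supply from outside the cell was read from 19 tested genes of 22 listed, of which 10 rose, 3 fell and 6 did not pass at 6 months (median 0.33), where 21.2% of all genes were called higher and 38.8% in either direction. Tfrc, the transferrin receptor that feeds iron to red cell precursors, rose by 1.66 ± 0.17, from 8.55 and 8.24 to 9.95 and 10.16, and Tfr2, the second transferrin receptor, by 1.20 ± 0.12. Slc40a1, ferroportin, the iron exporter of macrophages and other cells, rose by 1.86 ± 0.18 (adjusted p between 0.000452 and 0.000542 for the 3, limma). Fth1, the ferritin heavy chain, had close values (12.44 and 12.43 in 6 month WT, 12.47 and 12.60 in 6 month ENT1-null) and gave 0.11 ± 0.08 (adjusted p = 0.335, limma; chosen after its values were seen). Those that fell were Hjv, the hemojuvelin of muscle and liver (by 2.15 ± 0.52, adjusted p = 0.0141, limma), Slc39a14, a metal importer (by 0.67 ± 0.11), and Cp, the ferroxidase ceruloplasmin (by 0.60 ± 0.15); the part of the lower muscle markers in the value of Hjv was not tested. At 2 months none of the 19 passed (limma), 7 had an unadjusted p under 0.05, against 19.4% of all genes, and Tfrc gave 0.93 ± 0.17 (adjusted p = 0.0567).

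Heme breakdown and transport had 11 tested genes of 12 listed, of which 5 rose and 6 did not pass at 6 months (median 0.35); over all genes 21.2% were called higher and 38.8% in either direction. Hmox1, the inducible heme oxygenase, rose by 2.03 ± 0.31, from 7.70 and 7.06 to 9.11 and 9.71, Blvrb, biliverdin reductase B, by 2.01 ± 0.21 and Hp, haptoglobin, which binds free haemoglobin, by 1.91 ± 0.29 (adjusted p between 0.000533 and 0.00192, limma). Hmox2, the constitutive oxygenase, gave 0.35 ± 0.12 (adjusted p = 0.051, limma; chosen after its values were seen). At 2 months none of the 11 passed (limma), and 3 had an unadjusted p under 0.05, near the 19.4% of all genes.

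Among the regulators of heme synthesis, all 7 tested genes of 8 listed rose at 6 months, by 0.24 to 2.00 (median 1.42). Their adjusted p was at most 0.0395 (limma), and 21.2% of all genes were called higher. Of the 7 genes, 3 (Gata1, Klf1 and Epor) are also in the list of erythroid markers. Nfe2, a globin gene activator of red cell precursors and megakaryocytes, rose by 2.00 ± 0.10, from 6.49 and 6.24 to 8.34 and 8.39. Eif2ak1, the heme-regulated kinase that slows translation when heme is short, rose by 1.42 ± 0.09, and Klf1 by 1.92 ± 0.20 (adjusted p between 0.000354 and 0.000539 for the 3, limma). The same 3 rose at 2 months, by 0.84 ± 0.10, 0.57 ± 0.09 and 1.32 ± 0.20 (adjusted p between 0.0388 and 0.0443, limma), and the other 4 did not pass; of all genes 0.296% were called higher at that age. At 2 months no gene of the series passed when either 2 month ENT1-null replicate 2 or replicate 1 of 2 month WT was left out; in these 2 fits (in the order WT, ENT1-null) Nfe2 gave 0.79 and 0.86, Eif2ak1 0.55 and 0.59 and Klf1 1.20 and 1.41. The calls also ended without either array of 6 month ENT1-null or the first of 2 month ENT1-null, and that of Eif2ak1 without 2 month WT replicate 2. At the same differences all 3 calls ended with a block for replicate number and with only the groups compared, and those of Klf1 and Eif2ak1 with no filter and with all probe sets. That of Eif2ak1 ended with quantile normalization applied again too, at 0.55.

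Proteins that use heme outside the red cell were read from 14 tested genes of 16 listed, of which 6 rose, 1 fell and 7 did not pass at 6 months (median 0.30), beside the 38.8% of all genes called in either direction (21.2% higher). Those that rose most belong to granulocytes and phagocytes. Epx, eosinophil peroxidase, read 7.27 and 6.95 in WT against 11.07 and 11.02 in ENT1-null at 6 months, a rise of 3.94 ± 0.28. Mpo, the myeloperoxidase of neutrophils and also one of the neutrophil markers, rose by 2.59 ± 0.51, and Cyba, a subunit of the phagocyte NADPH oxidase, by 1.68 ± 0.20 (adjusted p between 0.000383 and 0.00582 for the 3, limma). On the same arrays the mean of the 11 neutrophil markers read 10.08 and 8.50 (WT) against 11.77 and 11.73 (ENT1-null), and its part was not tested. Mb, muscle myoglobin, fell by 1.83 ± 0.47 (adjusted p = 0.0183, limma; chosen after its values were seen), beside the lower muscle markers, whose part was not tested. At 2 months Epx alone of the 14 passed, at 1.91 ± 0.28 (adjusted p = 0.0443, limma; 0.296% of all genes were called higher). Its call ended without any 1 of the 4 ENT1-null arrays (1.66 to 2.16) and without 2 month WT replicate 1 (1.49), and, at the same difference, with no filter, with all probe sets, with the replicate block and with only the groups compared.

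**Figure D4:**
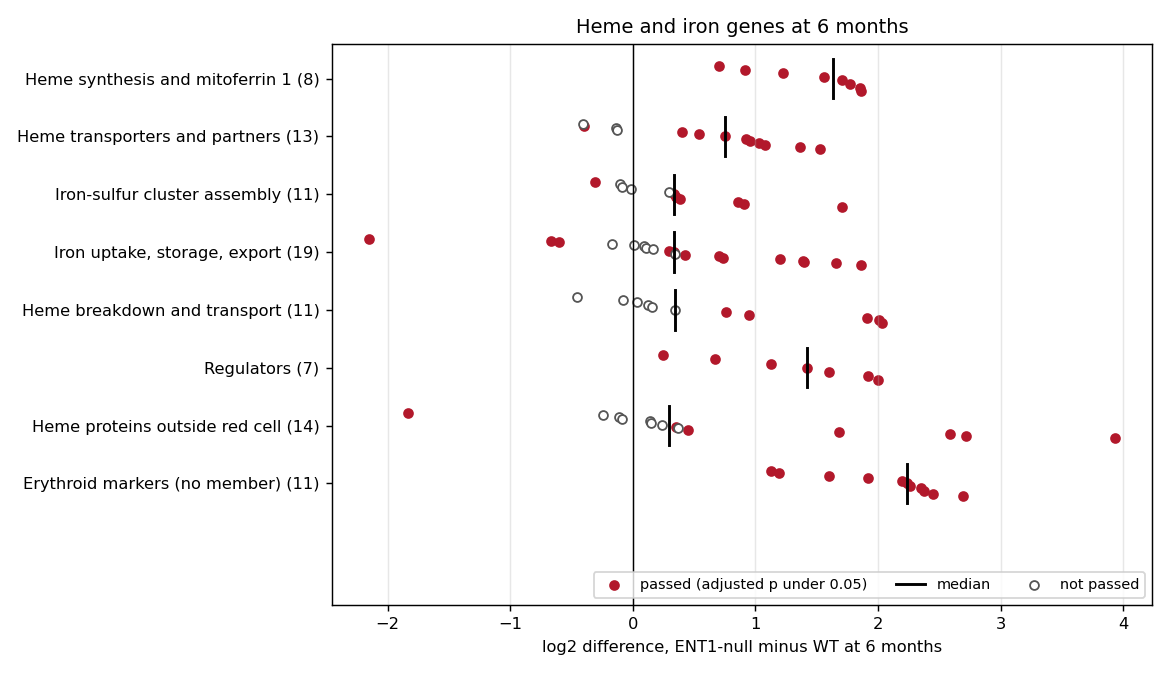
Log2 differences between ENT1-null and WT at 6 months (horizontal axis) for each tested gene of the heme and iron lists, with the number of genes in brackets; filled points passed at adjusted p under 0.05 and the line marks the median. The heme synthesis genes (median 1.63) and regulators (1.42) lie wholly above 0, as do the erythroid markers (2.24), while the other lists have members on both sides.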

How the data were processed

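Total RNA was labelled as cRNA and hybridised to Affymetrix arrays, per the labels' protocols. The deposited values are log2 RMA values of 41345 probe sets, RMA being named in the submitters' processing notes without a version; the array's genome build is not given in the sources used here. RMA corrects background, normalizes between arrays and summarises probes, which compresses differences of dim probe sets and sets the groups to 1 distribution. Of the probe sets 23521 have 1 gene symbol in the platform annotation, 1814 several and 16010 none; a gene was read from its single-symbol probe set of highest mean, and 21994 of 22180 genes matched RefSeq by Entrez ID. The filter dropped genes whose mean lay under 6.21 on the log2 scale, the 30th percentile, which left 15526. The 4 group means were fitted over all 8 arrays with limma 3.58.1 in R 4.3.3 (lmFit, eBayes, 4 residual degrees of freedom), 5 contrasts were taken, and p-values were adjusted by Benjamini-Hochberg over all genes tested at a threshold of 0.05. The fit was checked on simulated data, with genes drawn independently of each other and differences put only into 6 month ENT1-null. That setting is simpler than these arrays, whose genes vary together.

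The members and lists were chosen with earlier results of these data known. Genes named beside the members were the targeted gene and the 3 genes outside the members most correlated with Alas1. Each heme and iron list added its 3 tested genes with the largest absolute moderated statistic at 6 months. Lyrm4, Hjv, Slc39a14 and Cp were named because they fell at 6 months, after their values were seen. Others are marked where they appear. Alternatives were other filters, normalizations, probe sets, fits and thresholds, and each array left out in turn. Replicate numbers were not used as pairs, since no label ties a number to a shared animal, batch or day. Deviations of same-numbered arrays correlated between −0.39 and 0.41 over 6 pairs of groups, which does not decide whether they shared a source. The scan batch is not given in the sources used here.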

Additional observations from a re-analysis of the deposited data

Results flagged for a closer look

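The effect of genotype differed between the ages by the interaction test (limma, adjusted p below the threshold of 0.05) in 6 of the genes named; of all genes tested 2.56% were called with a larger effect at 6 months and 4.45% in either direction. Of the 6, Cpox was taken as a heme gene, and the other 5 were named for their large statistic at 6 months, which is 1 side of this difference and favours a positive value, so that their count supports nothing. Cpox, of the heme genes, differed by 0.94 (adjusted p = 0.046), from 0.77 at 2 months to 1.71 at 6 months. The heme-regulated kinase gene Eif2ak1 differed by 0.85 (adjusted p = 0.0383), from 0.57 to 1.42, and Nfe2 by 1.15 (0.0356), from 0.84 to 2.00. Slc25a38, the glycine carrier, differed by 0.67 (adjusted p = 0.0494), from 0.25 to 0.92, and Tfr2 by 0.85 (0.042), from 0.35 to 1.20. Epx, eosinophil peroxidase, differed by 2.02 (adjusted p = 0.0418), from 1.91 to 3.94. With 1 array left out at a time, Cpox and Epx passed in 0 of 8 fits and each of the other 4 genes in 1 of 8. With 2 arrays in a group, single arrays far from their group could not be tested.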

How the results depend on the processing

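All 8 heme genes passed at 6 months under all 17 alternatives, and none by age in WT. At 2 months 2 genes passed; 0 did with no filter, with quantile normalization again, with all probe sets and with only the groups compared, 4 with arrays centred on medians, and 5 at an adjusted p under 0.1. For the difference between ages, where 1 passed, 0 did with no filter, with quantile normalization again and with all probe sets, 3 with the filter at the 50th percentile, with arrays centred and with eBayes trend and robust, and 4 at an adjusted p under 0.1. With the replicate number as a block, 0 heme genes passed at 2 months, 0 for the difference between ages and 8 at 6 months and by age in ENT1-null; of all genes 1 and 353 passed in the first 2, against 106 and 691. Leaving out 1 array at a time gave 0 to 4 genes at 2 months, 0 to 1 for the difference between ages and 2 to 8 by age in ENT1-null. The cause of these shifts was not tested.

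By age in WT, where no gene passed, differences near 0 changed sign. Alas1 gave −0.0040 with arrays centred. With 1 array left out at a time Alas1 ran from −0.10 to 0.11, Urod from −0.088 to 0.35, Uros from −0.072 to 0.18 and Ppox from −0.20 to 0.058.

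Counts over all genes moved more. At 2 months, where 106 passed, 29 did with no filter, 35 with all probe sets, 161 with arrays centred (96 higher, against 46 of 106), 259 with trend and robust, 0 with only the groups compared, 823 at an adjusted p under 0.1 and 0 to 358 with 1 array left out. At 6 months 3295 of 6022 were higher, 2923 of 5982 with quantile normalization again and 3606 of 5899 with arrays centred, and 3670 to 5887 passed with 1 array left out. For the difference between ages 398 of 691 were higher, 299 of 706 with quantile normalization again and 600 of 908 with arrays centred; 11 passed with no filter, 1102 with trend and robust, 2383 at an adjusted p under 0.1 and 0 to 319 with 1 array left out. By age in ENT1-null 1519 to 3160 passed with 1 array left out, against 3442.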
